A study of Homo sapiens with 15 samples.

Results

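The contractile genes of smooth muscle and myoepithelium were followed in MCF-10A cells, an established, immortalized and non-tumorigenic line of human mammary epithelium, after knockdown or overexpression of forms of the transcription factor p63. The set held 10 genes of 11963 measured: TAGLN, MYL9, MYLK, ACTA2, ACTG2, CNN1, CNN2, TPM1, TPM2 and CALD1. They were chosen by name, with earlier results of these data known. Each was read from its brightest probe set, by the mean of all 15 arrays, out of 22 probe sets annotated to these genes among 22277 on the array. RNA was collected 48 hours after retroviral or adenoviral infection, and the labels do not say which virus served which arm. The knockdown arm compared shDBD, a hairpin against the DNA-binding domain that every p63 isoform carries, and shTA, a hairpin against the TA isoforms, with an shRNA vector (2 arrays per group). The overexpression arm compared ΔNp63α, an isoform without the N-terminal transactivation domain, and TAp63γ, which has that domain, with an empty vector (3 arrays per group). All groups were the same cell line, so no group holds tissue smooth muscle or tissue myoepithelium. TP63 itself was not analysed here, and the labels were therefore not checked against the level of the targeted gene.

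Contractile cells shorten when myosin II pulls on actin filaments. Myosin light chain kinase switches this on by phosphorylating the regulatory light chain of myosin, while tropomyosins, caldesmon and calponins lie along the actin filament and tune its access to myosin. In smooth muscle, many of these genes are controlled by serum response factor with its myocardin-family partners, which bind a DNA element called the CArG box. Myoepithelial cells, the basal cells of the breast that squeeze milk along the ducts, share much of this programme, and p63 is best known in breast as a marker and regulator of that basal layer.

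Values are log2 expression levels per array, and differences are log2 fold changes ± SE from limma with Benjamini-Hochberg adjustment over all 11963 genes in a comparison, with 0.05 as the threshold. Array medians lay at 7.19 to 7.21 in the knockdown arm and 6.95 to 6.98 in the overexpression arm. Replicate arrays correlated at 0.9925 or above, and treatments were compared only within an arm. The myoepithelial and basal keratins KRT5 and KRT14 averaged between 11.63 and 14.09 in all 6 groups, whereas OXTR, the oxytocin receptor through which myoepithelium is made to contract, lay below the 20th percentile of every array. In bulk RNA of this kind, fewer cells expressing a gene and less RNA per cell cannot be told apart.

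Promoter sequence is shown for the members with a match to the CArG box, since this is the element through which the family is best known to be controlled. The windows come from a RefSeq-derived table of promoters (GRCh38.p14, 250 bases before to 50 bases after each start) that held 13 promoters of 8 of the 10 genes, all but TAGLN and MYL9. Both strands were searched. An exact CArG box stood in 454 of 35116 promoters (1.29%), and a match with at most 1 mismatch in 6624 (18.9%). Exact matches were found in ACTG2, which had 2, and in CNN2 and MYLK. Capitals mark the matches.
ACTG2, chr2:73892873-73892969, plus strand: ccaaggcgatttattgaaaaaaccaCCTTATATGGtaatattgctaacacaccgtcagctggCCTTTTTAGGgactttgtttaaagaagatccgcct
CNN2, chr19:1026494-1026553, plus strand: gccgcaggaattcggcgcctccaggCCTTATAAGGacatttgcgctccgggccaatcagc
MYLK, chr3:123620608-123620667, minus strand: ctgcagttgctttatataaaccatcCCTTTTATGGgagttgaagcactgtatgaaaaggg
ACTA2, chr10:88952810-88952919, minus strand, with 2 matches of 1 mismatch each: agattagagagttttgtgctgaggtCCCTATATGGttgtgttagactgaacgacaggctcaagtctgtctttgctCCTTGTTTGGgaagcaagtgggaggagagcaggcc
The exact matches of ACTG2 began 110 and 73 bases before the start, that of CNN2 89 bases and that of MYLK 94 bases before it. The ACTA2 matches began 121 and 71 bases before the start in 1 of its 2 promoters. CALD1 had a 1-mismatch match in 2 of 4 promoters, and these letters were not in the windows of CNN1, TPM1 or TPM2. A second element, CATTCC, which TEAD factors are known to bind, stood in 14.0% of all promoters and in 1 of the 2 of ACTA2, 2 of the 4 of CALD1 and the 1 of MYLK. A match is a description of sequence and not of binding. For MYLK only 1 promoter was held, and which transcript of the gene starts there was not examined.

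**Figure D1:**
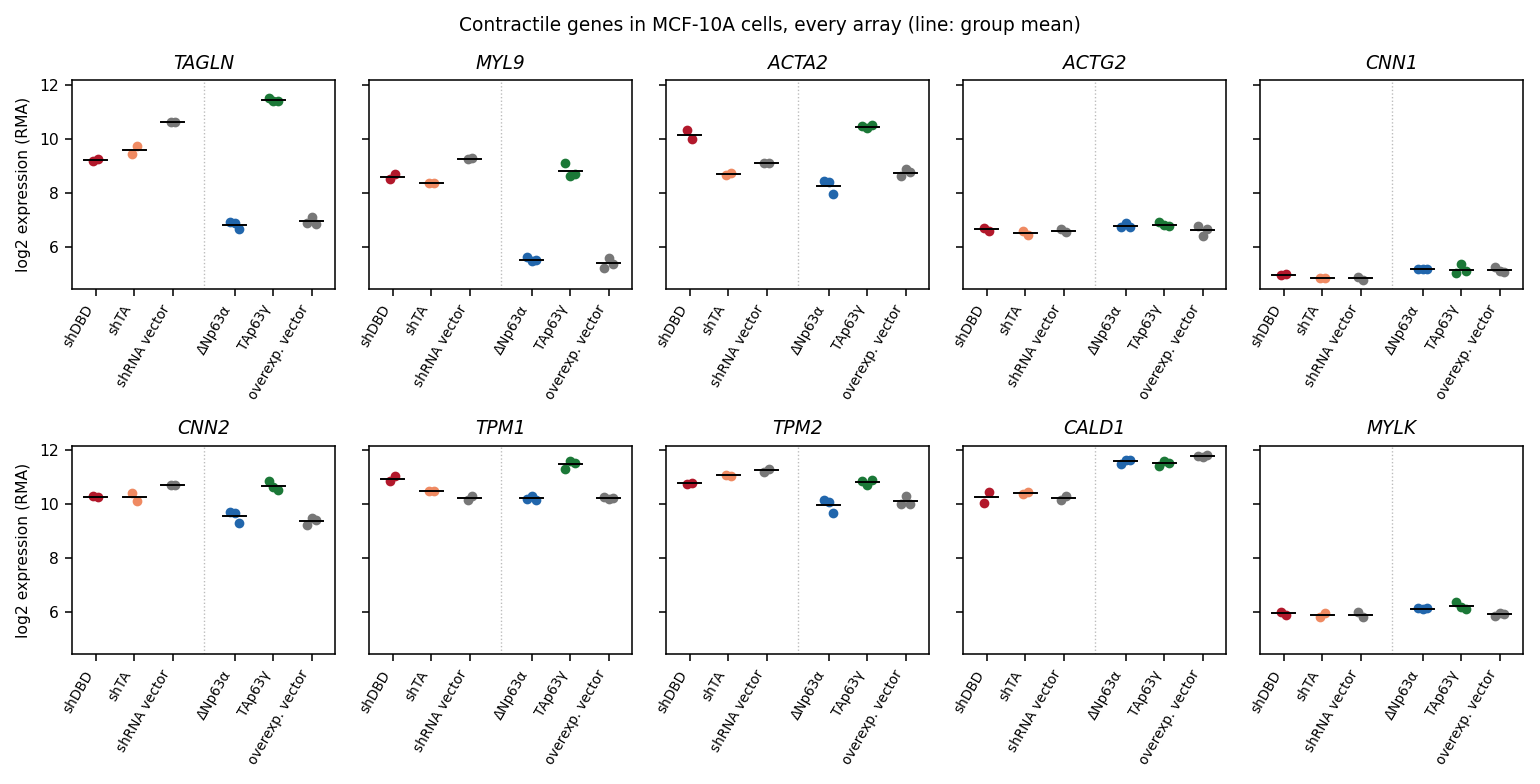
Log2 expression of each of the 10 contractile genes on every array (points) with the group mean (line), knockdown arm at the left of the dotted line and overexpression arm at the right. TAGLN and MYL9 were below their vector with both hairpins and far above their vector with TAp63γ, and CNN1 lay between 4.80 and 5.36 on all arrays.

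With TAp63γ most of the contractile set rose. Of the 10 genes, 7 were higher than with the vector and 1 was lower, against a background of 20.5% of all genes higher, 22.8% lower and 43.4% in either direction. The median change of the set was 0.98, against −0.02 over all genes, and 5 of the 10 rose at least 2-fold, as against 8.4% of all genes that changed that much in either direction. TAGLN and MYL9 moved most, 22.4-fold and 10.6-fold. CALD1 was the member that fell.

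The motor side of the set was led by MYL9, a regulatory light chain of myosin II. MYL9 read 9.11, 8.62 and 8.69 with TAp63γ, against 5.24, 5.59 and 5.36 with the vector, a difference of 3.41 ± 0.12 (adjusted p = 3.53e-12). All 3 TAp63γ arrays lay far above all 3 vector arrays, whose mean level stood at the 24.7th percentile of the array. MYLK, the kinase that phosphorylates such light chains, read 6.39, 6.21 and 6.13 with TAp63γ, against 5.89, 5.97 and 5.95 with the vector (0.31 ± 0.08, adjusted p = 0.00425). The MYLK arrays did not overlap either, but the change was a small one on a low level.

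Among the actins, ACTA2, the smooth muscle α-actin, read 10.47, 10.39 and 10.50 with TAp63γ, against 8.62, 8.89 and 8.77 with the vector. This was a 3.24-fold rise (1.69 ± 0.12, adjusted p = 1.77e-08), with no overlap between the groups. ACTG2, the γ-actin of enteric smooth muscle, read 6.91, 6.80 and 6.77, against 6.76, 6.41 and 6.68, and did not pass (0.21 ± 0.09, adjusted p = 0.0776). Its arrays were barely apart, and without vector replicate 1 it passed (adjusted p = 0.0298).

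TAGLN encodes transgelin, an actin-binding protein of the calponin family that is an early marker of smooth muscle. It read 11.50, 11.39 and 11.41 with TAp63γ, against 6.89, 7.12 and 6.85 with the vector (4.49 ± 0.10, adjusted p = 3.716e-14), the 10th largest rise of 11963 genes. The groups lay more than 4 log2 units apart, and the replicates of each lay within 0.3 of each other. CNN2, the calponin with the wider tissue range, read 10.86, 10.64 and 10.52 with TAp63γ, against 9.23, 9.50 and 9.42 with the vector (1.29 ± 0.12, adjusted p = 2.634e-07), again without overlap. CNN1, the calponin of differentiated smooth muscle, read 5.02, 5.36 and 5.11, against 5.26, 5.11 and 5.09 (0.01 ± 0.08, adjusted p = 0.952). CNN1 was above the 20th percentile on 7 of the 15 arrays, all in the overexpression arm. Its group means there stood only at percentiles 21 to 21.3, so it was not shown to be expressed. The 95% interval of its difference ran from −0.16 to 0.18.

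The thin filament genes moved unequally. TPM1, a tropomyosin, read 11.31, 11.61 and 11.52 with TAp63γ, against 10.28, 10.20 and 10.23 with the vector (1.25 ± 0.08, adjusted p = 9.455e-09). TPM2, a second tropomyosin, read 10.86, 10.73 and 10.89, against 10.02, 10.31 and 10.02 (0.71 ± 0.11, adjusted p = 8.158e-05). Both tropomyosins were above every vector array. CALD1, caldesmon, which restrains actin-activated myosin, went the other way, at 11.43, 11.59 and 11.54 with TAp63γ, against 11.80, 11.75 and 11.82 with the vector (−0.27 ± 0.09, adjusted p = 0.0250). All 3 of its TAp63γ arrays were below the vector arrays by a small margin. Leaving out vector replicate 1 or 3 or TAp63γ replicate 1 or 3 ended this call (adjusted p from 0.0528 to 0.0937).

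ΔNp63α gave a different picture. Of the 10 genes 1 passed, ACTA2, which fell, against a background of 28.9% in either direction, 12.3% higher and 16.6% lower. With 10 genes, this count is too small to be read as a shortfall against the background. ACTA2 read 8.44, 8.42 and 7.97 with ΔNp63α, against 8.62, 8.89 and 8.77 with the vector (−0.48 ± 0.12, adjusted p = 0.00711), and the third ΔNp63α array was the lowest. TAGLN read 6.92, 6.89 and 6.66, against 6.89, 7.12 and 6.85 (−0.13 ± 0.10, adjusted p = 0.394, 95% interval −0.33 to 0.08), and its groups overlapped. MYL9 read 5.63, 5.48 and 5.50, against 5.24, 5.59 and 5.36 (0.14 ± 0.12, adjusted p = 0.433, 95% interval −0.11 to 0.39). Its vector arrays averaged the 24.7th percentile, so low that a fall would have been hard to see. The largest positive difference was that of MYLK, at 6.16, 6.12 and 6.16, against 5.89, 5.97 and 5.95, which narrowly missed the threshold (0.21 ± 0.08, adjusted p = 0.0559). CNN2, TPM1, TPM2, CALD1, ACTG2 and CNN1 differed by −0.20 to 0.18 and did not pass.

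Set directly against TAp63γ, ΔNp63α left 6 of the 10 genes lower and 0 higher, against backgrounds of 20.6% lower, 19.2% higher and 39.8% in either direction. TAGLN was 24.4-fold lower with ΔNp63α (−4.61 ± 0.10, adjusted p = 1.48e-13), the second-lowest difference of all genes. MYL9 differed by −3.27 ± 0.12, ACTA2 by −2.17 ± 0.12, TPM1 by −1.26 ± 0.08, CNN2 by −1.11 ± 0.12 and TPM2 by −0.85 ± 0.11. CALD1 and MYLK differed by 0.07 ± 0.09 and −0.10 ± 0.08, and with ACTG2 and CNN1 did not pass. The comparisons of ΔNp63α and of TAp63γ with the vector share its 3 arrays, whereas this difference does not use them.

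Knockdown with shDBD moved the set in both directions. TAGLN, MYL9, CNN2 and TPM2 fell, and ACTA2 and TPM1 rose, which is 6 of 10 against a background of 21.3% in either direction, 11.1% higher and 10.2% lower. The median of the set was 0.03, against 0.00 over all genes, and lay between the values of CALD1 and MYLK, which did not pass.

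TAGLN, the transgelin gene, read 9.18 and 9.24 with shDBD, against 10.64 and 10.63 with the vector (−1.43 ± 0.12, adjusted p = 4.955e-07), a 2.69-fold fall. MYL9 read 8.52 and 8.69, against 9.25 and 9.30 (−0.67 ± 0.14, adjusted p = 0.00306). In both genes the shDBD arrays lay below the vector arrays. CNN2 read 10.32 and 10.26, against 10.72 and 10.71 (−0.42 ± 0.14, adjusted p = 0.04998), at the edge of the threshold and lost in 12 of 25 alternatives. TPM2 read 10.77 and 10.78, against 11.21 and 11.30 (−0.48 ± 0.14, adjusted p = 0.0196). Leaving out either shDBD array or either vector array ended the TPM2 call (adjusted p from 0.0645 to 0.128).

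ACTA2 and TPM1 took the opposite direction. ACTA2 read 10.33 and 9.98 with shDBD, against 9.11 and 9.10 with the vector, a 2.08-fold rise (1.06 ± 0.15, adjusted p = 9.103e-05). TPM1 read 10.87 and 11.04, against 10.14 and 10.32 (0.72 ± 0.10, adjusted p = 0.000103). Both shDBD arrays were above both vector arrays in each gene. CALD1, MYLK, ACTG2 and CNN1 differed by 0.01 to 0.13, and none passed. In CALD1 the 95% interval was −0.23 to 0.25.

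Knockdown with shTA lowered 2 of the 10 genes and raised 0, against backgrounds of 0.853% lower, 1.44% higher and 2.29% in either direction. TAGLN read 9.46 and 9.73 with shTA, against 10.64 and 10.63 with the vector, a 2.06-fold fall (−1.04 ± 0.12, adjusted p = 0.000149). MYL9 read 8.38 and 8.39, against 9.25 and 9.30 (−0.89 ± 0.14, adjusted p = 0.00283). All shTA arrays lay below all vector arrays in both genes, which stood 3rd and 8th among the largest falls of all genes. CNN2 (−0.44 ± 0.15, adjusted p = 0.150), ACTA2 (−0.40 ± 0.15, adjusted p = 0.220), TPM1 (0.25 ± 0.10, adjusted p = 0.306) and TPM2 (−0.19 ± 0.14, adjusted p = 0.644) did not pass. With the variance estimated from the knockdown arm alone, CNN2 (adjusted p = 0.0105) and ACTA2 (0.0301) passed.

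Set directly against shTA, shDBD gave 2 higher and 1 lower of 10, against backgrounds of 9.14% higher, 9.23% lower and 18.4% in either direction. ACTA2, the smooth muscle actin, read 10.33 and 9.98 with shDBD, against 8.65 and 8.76 with shTA (1.46 ± 0.15, adjusted p = 5.01e-06), and TPM1 differed by 0.48 ± 0.10 (adjusted p = 0.0039, and 0.0579 without shDBD replicate 2). TAGLN was lower with shDBD (−0.38 ± 0.12, adjusted p = 0.0355), a call lost on leaving out any knockdown array but shTA replicate 1 (adjusted p up to 0.327). MYL9 (0.22 ± 0.14, adjusted p = 0.369) and CNN2 (0.02 ± 0.15) did not pass.

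**Figure D2:**
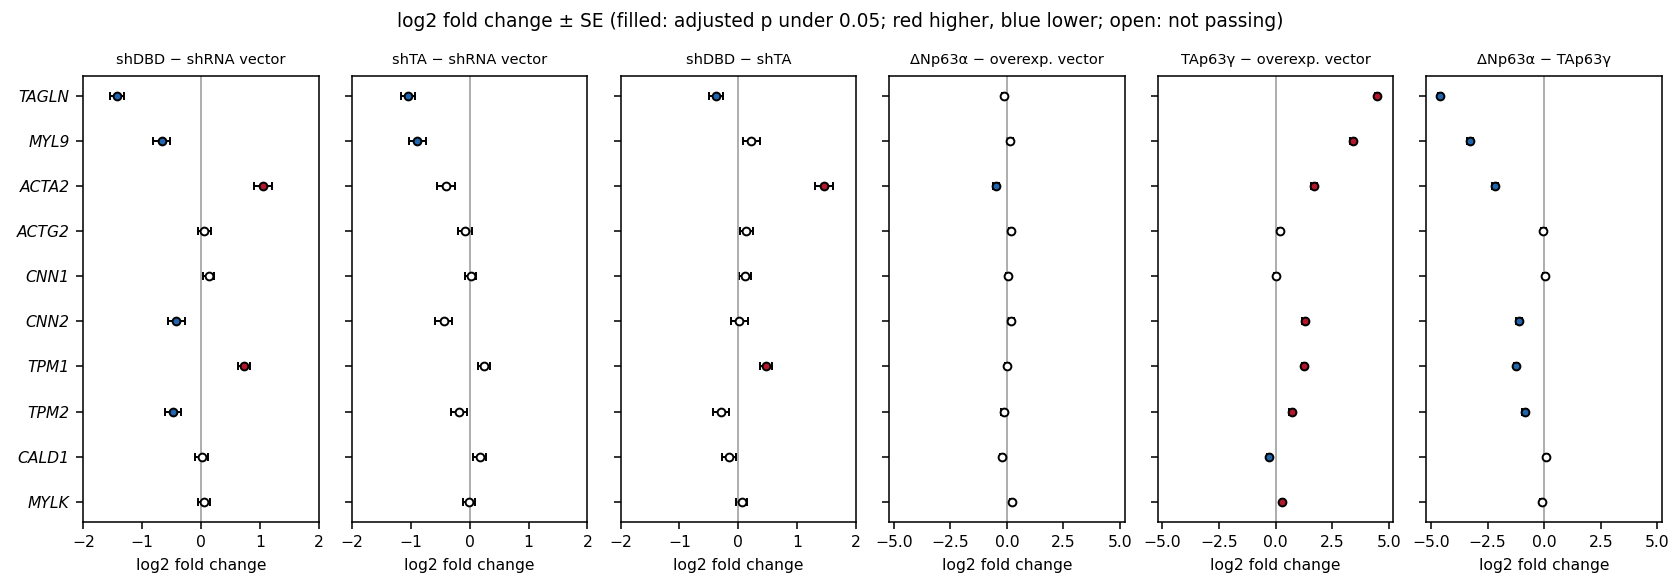
Log2 fold change ± SE of each contractile gene in the 6 comparisons; red points are higher and blue points lower at an adjusted p under 0.05, open points did not pass, and the axis is wider for the overexpression arm. TAGLN fell with shDBD and shTA (−1.43 and −1.04) and rose with TAp63γ (4.49), whereas ACTA2 rose with shDBD (1.06) and with TAp63γ (1.69).

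The knockdown and overexpression arms share no array, so the members can be set side by side. The tests of both arms used the same variance estimate of each gene, so the calls are not fully independent. Of 1615 genes called in both the shDBD and the TAp63γ comparison, 682 moved in opposite directions (42.2%). Of the 6 members called in both, 4 did so (TAGLN, MYL9, CNN2 and TPM2), and ACTA2 and TPM1 rose in both. In these 4 the shRNA vector lay above the overexpression vector by 1.14 to 3.88, against a median of 0.27 over all genes. ACTA2 differed by 0.35, and TPM1 averaged 10.23 in both vectors. The part of these vector levels was not tested. In the shTA and TAp63γ comparisons, 207 genes were called in both and 101 were opposite (48.8%), and both members among them, TAGLN and MYL9, were opposite. In the shDBD and ΔNp63α comparisons 1245 genes were called in both and 721 were opposite (57.9%), and the single member, ACTA2, was opposite.

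**Figure D3:**
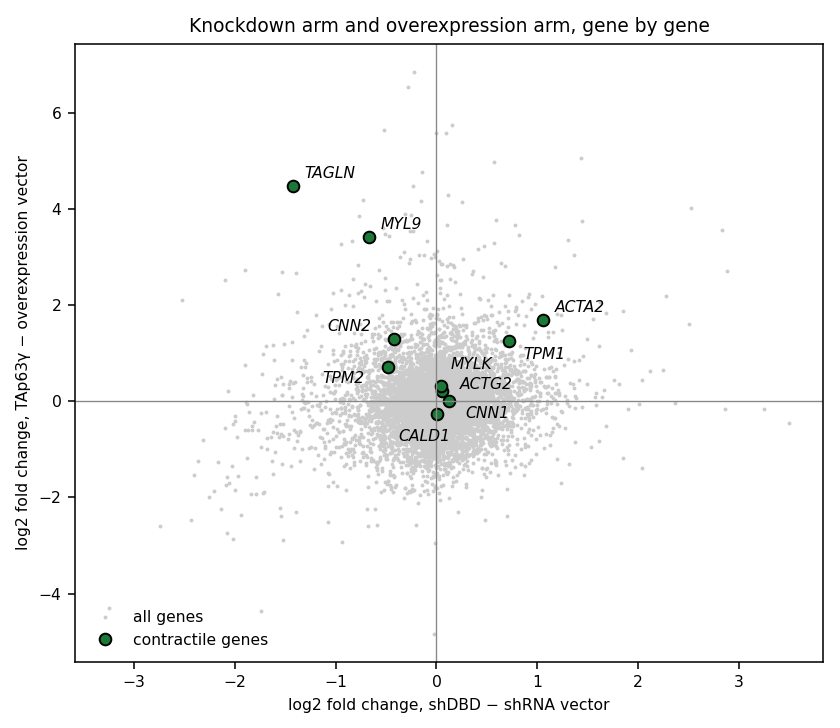
Log2 fold change with shDBD over the shRNA vector (x axis) against that with TAp63γ over the overexpression vector (y axis) for all 11963 genes (grey) and the 10 contractile genes (green). TAGLN, MYL9, CNN2 and TPM2 lie at the upper left and ACTA2 and TPM1 at the upper right.

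Several members have more than 1 probe set, and no gene had probe sets called in opposite directions in a comparison. For TPM1 all 4 probe sets rose with TAp63γ (1.29, 1.25, 1.22 and 0.64), while 2 of 4 rose with shDBD (0.72 and 0.66) and the other 2 did not pass (0.44 and 0.13). For TPM2 both probe sets rose with TAp63γ (0.71 and 0.54), and the second did not pass with shDBD (−0.19). For CALD1, 3 of 8 fell with TAp63γ (−0.34, −0.31 and −0.27) and the other 5 did not pass. ACTA2 has a second probe set that lay below the 20th percentile on every array, with differences of 0.02 with shDBD and −0.22 with TAp63γ. The mean of both probe sets gave 0.54 with shDBD and 0.74 with TAp63γ.

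**Figure D4:**
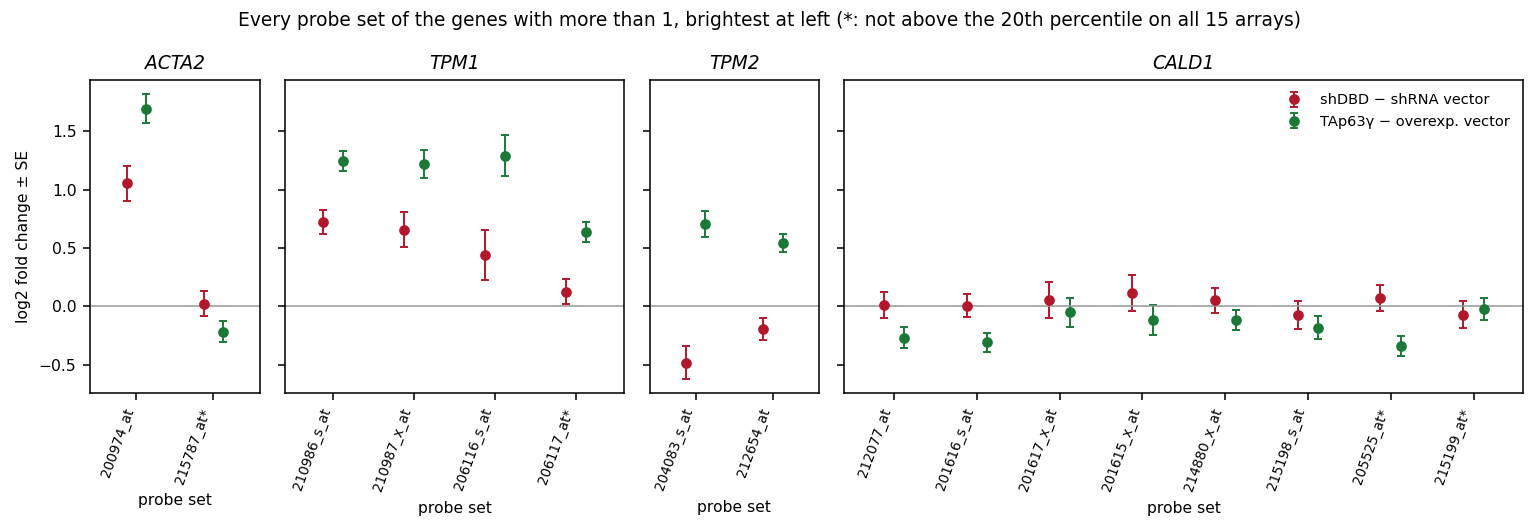
Log2 fold change ± SE of every probe set of the 4 genes with more than 1, for shDBD over the shRNA vector (red) and TAp63γ over the overexpression vector (green), brightest probe set at the left. All 4 TPM1 probe sets lie above 0 with TAp63γ, and the 8 CALD1 probe sets lie between −0.34 and 0.11 in both comparisons.

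Genes that work with the set were counted in lists, for which the shares of all genes called in each comparison, given above, are the background. The first list held 16 other actin, myosin, tropomyosin, calponin and transgelin genes and smooth muscle markers. Of these, 9 rose and 0 fell with TAp63γ. The largest rises were those of SMTN, smoothelin of smooth muscle (2.44 ± 0.14), and TPM4, a tropomyosin (1.65 ± 0.18). MYL6, an essential myosin light chain (1.59 ± 0.09), and TAGLN2, a transgelin relative (1.58 ± 0.11), came next. MYH10, a nonmuscle myosin heavy chain, did not pass (−0.18 ± 0.09). The smooth muscle markers MYH11, DES and LMOD1, in the same list, did not pass either. They averaged 6.91, 6.29 and 5.69 with TAp63γ, against 7.04, 6.23 and 5.54 with the vector. With ΔNp63α 6 of the 16 genes rose and 0 fell, among them SMTN (1.73 ± 0.14) and MYL6 (0.89 ± 0.09). With shDBD 0 rose and 2 fell, SMTN (−0.71 ± 0.17) and TAGLN2 (−0.57 ± 0.14), and with shTA 0 passed.

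Of 16 stress fibre and focal adhesion genes, 10 rose and 2 fell with TAp63γ, 3 rose and 2 fell with ΔNp63α, 0 rose and 9 fell with shDBD, and 0 rose and 2 fell with shTA. CSRP1, a LIM protein, rose with TAp63γ (1.55 ± 0.09), as did PALLD, palladin (0.98 ± 0.07), TGFB1I1, a LIM adaptor of focal adhesions (0.87 ± 0.10), and VCL, vinculin (0.82 ± 0.09). PDLIM7, a PDZ and LIM protein (−1.60 ± 0.14), TGFB1I1 (−1.43 ± 0.12), ZYX, zyxin (−0.97 ± 0.21), and FHL2, a LIM cofactor (−0.96 ± 0.08), fell with shDBD. TGFB1I1 (−0.99 ± 0.12) and PDLIM7 (−0.72 ± 0.14) were those that fell with shTA.

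A further list held 12 measured transcription regulators, SRF and myocardin family members with others such as KLF4 and TEAD1. Of these, 3 rose and 4 fell with TAp63γ, and 0 rose and 3 fell with ΔNp63α. With shDBD 0 rose and 3 fell, and with shTA 0 rose and 1 fell. The counts with ΔNp63α and shDBD are near the shares over all genes, 28.9% and 21.3%. SRF, serum response factor, rose with TAp63γ (0.43 ± 0.09), fell with ΔNp63α (−0.44 ± 0.09) and fell with shDBD (−0.56 ± 0.11). MRTFA, an actin-sensing SRF partner, rose with TAp63γ (0.56 ± 0.14), while its relative MRTFB fell (−0.98 ± 0.15), as did KLF4, a repressor of smooth muscle genes (−1.49 ± 0.16). KLF4 also fell with ΔNp63α (−0.53 ± 0.16) and with shDBD (−1.08 ± 0.20). With shTA the gene that fell was TEAD1 (−0.45 ± 0.11).

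A list of 14 TGF-beta and CCN genes held ligands, receptors and SMAD3 as well as targets. With TAp63γ 10 rose and 2 fell, with CCN1, a matricellular protein, higher by 2.23 ± 0.08. With ΔNp63α 9 rose and 3 fell. Among them SMAD3 (1.35 ± 0.12) and the ligand TGFB1 (1.15 ± 0.13) rose, and TGFBI, an extracellular matrix protein, fell (−0.92 ± 0.06). With shDBD 3 rose and 5 fell, among them CCN1, which rose (0.92 ± 0.09), and TGFBI, which fell (−1.45 ± 0.07). With shTA 0 rose and 1 fell, THBS1 (−0.79 ± 0.16).

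Other cell types were followed with marker lists, again with the shares of all genes called as the background. In either direction these were 43.4% with TAp63γ, 28.9% with ΔNp63α, 21.3% with shDBD and 2.29% with shTA. Of 9 myoepithelial and basal markers, 6 rose and 2 fell with TAp63γ. Among those that rose were KRT14 (2.08 ± 0.09) and CDH3, P-cadherin (1.40 ± 0.10). Those that fell were MME (7.61, against 7.93 with the vector) and EGFR (11.08, against 11.52). The mean level of the list was 10.63 to 10.77 with TAp63γ, against 9.92 to 10.09 with the vector. Of 12 luminal markers, 2 rose and 2 fell with TAp63γ, among them CD24 (1.97 ± 0.09) and EPCAM (−1.36 ± 0.13), at mean levels of 8.68 to 8.71, against 8.59 to 8.66. Of 10 vascular smooth muscle and pericyte markers, 0 rose and 1 fell, at mean levels of 5.87 to 6.04, against 5.96 to 6.02, and 2 of them lay below the 20th percentile on every array of both groups. Of 13 fibroblast markers, 2 rose, FAP (1.11 ± 0.09) and COL6A3 (0.58 ± 0.09), and 1 fell, at mean levels of 6.60 to 6.67, against 6.56 to 6.61, with 3 below that percentile on every array. Of 10 striated muscle markers 1 rose, ACTC1, the cardiac actin (0.50 ± 0.09), and 1 fell. The striated muscle factors MYOG and MYOD1 averaged 6.66 and 6.27 with TAp63γ, above the 20th percentile on every array of that group. A level above that percentile therefore does not by itself show expression. The members ACTG2 and MYLK averaged 6.83 and 6.24 in the same group, so their level alone does not show it either. With shDBD, 5 of 12 luminal markers rose and 0 fell, at 9.70 to 9.78, against 9.36 to 9.42. Of 9 basal markers 1 rose, MME (1.15 ± 0.09), and 4 fell, among them EGFR (−1.06 ± 0.18). The basal list averaged 10.23 to 10.24, against 10.43 to 10.45. With shTA 1 basal marker rose, again MME (0.83 ± 0.09), and 0 fell, and 1 luminal marker rose and 1 fell. With ΔNp63α 6 basal markers rose and 1 fell, and 1 luminal marker rose and 4 fell. Of the 13 fibroblast markers, 1 rose with shDBD, DCN, decorin (2.37 ± 0.13), and 2 fell, VIM, vimentin (−0.53 ± 0.10), and FAP (−0.47 ± 0.11), at mean levels of 6.95 to 6.96, against 6.83 to 6.85. The difference between 3′ and 5′ actin probe sets, a measure of RNA integrity, was 0.07 ± 0.03 with shDBD and 0.10 ± 0.14 with shTA, against −0.09 ± 0.01 with the vector (SD, n = 2), and 0.08 ± 0.07 with TAp63γ and 0.16 ± 0.06 with ΔNp63α, against 0.17 ± 0.06 (SD, n = 3). The part of these markers and of RNA integrity in the member results was not tested.

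Over the 15 arrays, with each arm centred on its vector, the genes most like TAGLN were CSRP1 (r = 0.995), MYL9 (0.992), CHRNB1 (0.991), FN1 (0.989) and FAP (0.987). Among the members, CNN2 (0.965) and TPM2 (0.941) followed it closely, TPM1 (0.723), ACTA2 (0.714) and MYLK (0.695) less closely, and the values were 0.50 for ACTG2, −0.21 for CNN1 and −0.64 for CALD1. These are descriptions over arrays that share groups, and the TAp63γ arrays, where TAGLN is 4.49 above its vector, lie farthest from their vector.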

How the data were processed

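The deposited values are log2 expression levels per probe set, made by the authors with RMA, per the submitters' processing notes; no source used here gives its version or settings. RMA equalizes arrays and compresses low levels. The arms were treated as normalized separately because their array medians differ. Of 22277 probe sets, 62 were controls, 19064 had 1 gene symbol in the platform annotation, 1043 had several and 2108 were not listed. Each of 11963 genes was read from its probe set with the highest mean. Tests used limma (3.58.1, under R 4.3.3), with a mean per group over 15 arrays (9 residual and 5.87 prior degrees of freedom), a variance trend and two-sided tests, adjusted by Benjamini-Hochberg within a comparison. The procedure was tested on simulated data that gave each gene the same spread in every group. It therefore does not show how the tests behave where the arms differ in spread. The members, lists and tests were chosen with earlier results of these data known. The rule named all 10 members, up to 4 passing and 2 not passing genes per list and comparison, and the 5 genes most like TAGLN; SRF was also named with TAp63γ after its values were seen. The labels call replicates biological without stating separate infections; p-values therefore cover only the spread among these arrays, whose number limits the precision. Levels under the array's 20th percentile were not taken as above background, and a level above it does not by itself show expression. The deviations of same-numbered arrays from their group means correlated at −0.628 to 0.476. With 2 or 3 arrays per group such values cannot show whether the numbers pair samples, and the main tests did not pair them. Alternatives covered normalization, filters, probe sets, separate arms, the replicate block and each array left out. The result of 1 gene list is not reported here.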

Additional observations from a re-analysis of the deposited data

How the results depend on the processing

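The 60 values of the 10 genes in 6 comparisons were recomputed under 25 alternatives. Of 26 calls, 21 held in every alternative and 0 changed direction. The other 5 were CNN2 (adjusted p 0.00294 to 0.204, lost in 12 of 25) and TPM2 with shDBD, TAGLN and TPM1 between shDBD and shTA (TPM1 without shDBD replicate 2, 0.0579), and CALD1 with TAp63γ (0.0821 under cyclic loess, up to 0.0937 without 1 array). With the mean over all probe sets of a gene, ACTA2 was 0.54 with shDBD and 0.74 with TAp63γ. With the arms fitted separately, 4 members passed with shTA in place of 2, among them ACTA2 (0.0301) and CNN2 (0.0105), and all genes called numbered 1064 with shTA in place of 274 and 3359 between the hairpins in place of 2197. With ΔNp63α 2 members passed, in place of 1, under cyclic loess, with values floored at the 20th percentile and with the mean over all probe sets, the second being MYLK. With the replicate number as a block, 150 genes were called with shTA. Leaving out 1 array at a time gave 1650 to 2968 genes with shDBD, 87 to 472 with shTA and 1348 to 2588 between the hairpins, and 1 to 2 members with ΔNp63α. The cause of these shifts was not tested. Levels near the low end of the array, CNN1 above all, limit what can be shown.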

Other observations

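The vector controls of the arms differ widely in TAGLN and MYL9. TAGLN averaged 10.64 in the shRNA vector and 6.95 in the overexpression vector, a difference of 3.69, the 9th largest of 11963 genes. MYL9 averaged 9.28 in the shRNA vector and 5.40 in the overexpression vector, a difference of 3.88, the 4th largest. CNN2 (1.33) and TPM2 (1.14) were also higher in the shRNA vector, and CALD1 was lower (−1.54). ACTA2 differed by 0.35, and TPM1 by 0.00. The median over all genes was 0.27, and 0.09 once all arrays had been quantile normalized together, when TAGLN still differed by 3.60 and MYL9 by 3.73. The arms were treated as normalized separately and the difference was not tested.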
